A study of Mus musculus with 2 samples.

Results

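The m6A peaks of 7 genes that encode transcription and splicing regulators of epithelium and glands (Foxa2, Klf5, Elf3, Ehf, Grhl2, Esrp1 and Esrp2) were examined in the mouse uterus. N6-methyladenosine (m6A) is adenosine methylated within an mRNA, and a peak is a stretch of the genome where RNA fragments pulled down with an antibody against it (the IP) pile up over a background. A peak was taken for a gene when its summit, the position of its highest pileup, lay within the gene's span in the RefSeq annotation of GRCm38, the assembly of mm10. By this rule 17 of the 26584 deposited peaks belonged to the genes, and 6 of the 7 genes had at least 1.

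The samples were 1 IP and 1 input of uterine polyA RNA from wild-type females, and the input was unselected by antibody. The females were 6 to 8 weeks old at mating with fertile males and were taken on gestational day 4, counting the day of the vaginal plug as day 1. The cell type is labelled mixed, so epithelium, stroma, muscle and vessels contribute to 1 RNA sample, and fewer cells of a type cannot be told apart from less RNA per cell. How many animals were pooled is not given in the sources used here. With 1 sample of each kind there is no test across samples, and every comparison below describes 1 peak list. The run name in all peak names, D8NegIP-Posinput, differs from the labels in its day. The meaning of NegIP and Posinput is not given, so whether the labelled input was the background of the fold enrichments is unsettled.

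The uterine lumen is lined by an epithelium from which the glands bud, and glands secrete factors that an implanting embryo needs. In the mouse, FOXA2 is a forkhead factor of the gland cells, and KLF5 is a zinc finger factor of the uterine epithelium required for implantation. ELF3 and EHF are ETS-family factors restricted largely to epithelia, and GRHL2 is a grainyhead factor that maintains adhesion genes such as that of E-cadherin. ESRP1 and ESRP2 are RNA-binding proteins that direct splicing towards epithelial isoforms, as in the receptor gene Fgfr2. In mRNA, m6A is known to gather near stop codons and in long exons, and to affect the stability, splicing and translation of transcripts.

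Peaks were found in 6 of the 7 regulator genes (85.7%, 48.7 to 97.4), against 9831 of all 21900 protein-coding genes (44.9%, 44.2 to 45.6). Intervals of shares are 95% Wilson intervals that treat genes as independent draws. These genes and the gene lists below were picked with earlier results of these data known. The intervals are therefore descriptive and are no support for a difference from all genes. More than 1 peak was found in 5 of the 7 members, and in 26.2% of all protein-coding genes. Among only the protein-coding genes with a peak, 58.3% had more than 1, and the median was 2 peaks per gene. Elf3 and Grhl2 had 4 peaks each, Klf5 and Ehf 3 each, Foxa2 2 and Esrp2 1, and Esrp1 had none. Whether a gene is expressed is not in the data used here, so the share is set against all protein-coding genes and not against expressed ones.

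The fold enrichment is the IP pileup at the summit plus 1, divided by the background plus 1, as the authors' peak caller gave it. Its 95% interval below comes from the exact Poisson interval of the pileup, as if the background were known without error. Amplified fragments may be copies of 1 molecule, so the interval covers counting error only. Over the 17 member peaks the fold enrichment ran between 5.52 and 15.2 with a median of 8.88, against 7.14 over all 26584 peaks. Of the 17, 13 stood above that median of all peaks. Over all peaks in protein-coding spans the median was 7.26. A Foxa2 and a Grhl2 peak among the 13, both at 7.22, lay below it. The IP pileups ran between 8 and 71 fragments with a median of 19, the same as over all peaks in protein-coding spans, and 3 member peaks rested on fewer than 10 fragments. Their −log10 q ran between 6.23 and 46.7, where the lowest in the whole list was 1.31.

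**Figure D1:**
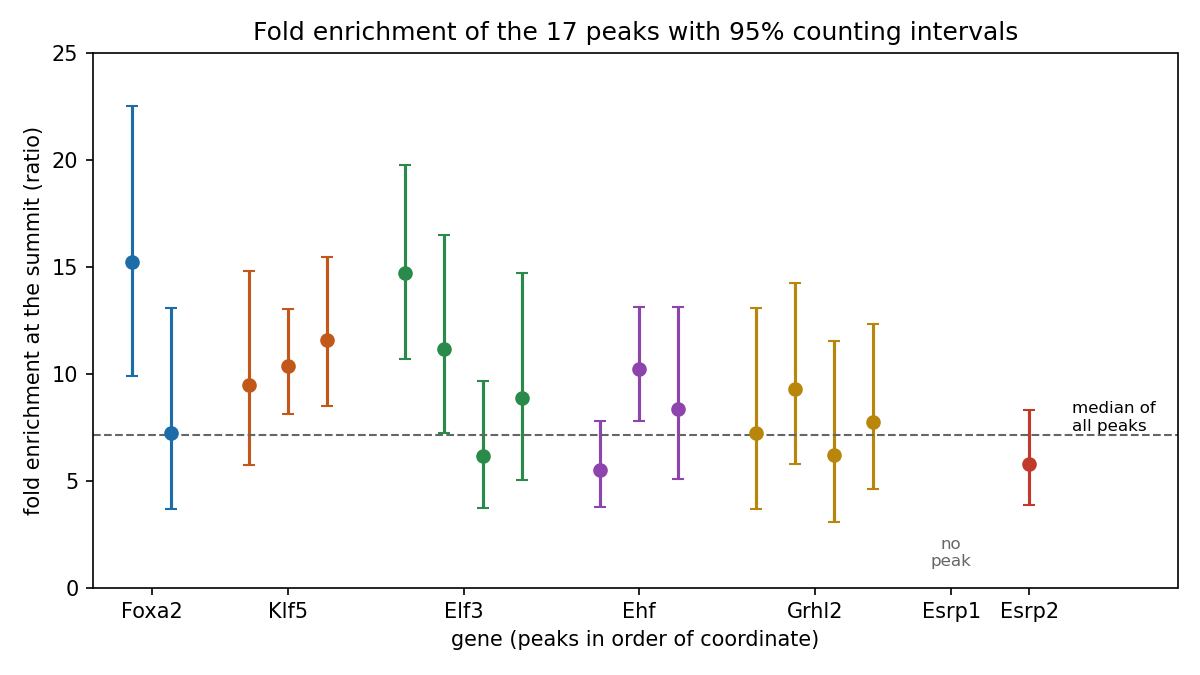
Fold enrichment at the summit (vertical axis, ratio) of the 17 peaks of the 7 genes, in order of coordinate within each gene; bars are 95% Poisson intervals that leave out the error of the background. The dashed line is the median of all peaks, 7.14. The first peaks of Foxa2 and Elf3 stand highest, at 15.2 and 14.7, and Esrp1 has no peak.

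Foxa2, the gland regulator, carried the highest fold enrichment of the 7 genes, over a low background. Its span on chromosome 2, 148042877 to 148046969, is 4093 bp long and overlaps no other gene. The stronger of its peaks, at 148043329 to 148043655, had 23 IP fragments over a background of 0.577 and a fold enrichment of 15.2 (9.88 to 22.5). The other, at 148044343 to 148044715, had 9 fragments over 0.384 and a fold enrichment of 7.22 (3.69 to 13.1). The intervals of the pair overlap. Overlap of intervals, here and below, does not show that peaks are alike, and differences between peaks were not tested. In 1640 other protein-coding genes the strongest peak was above that of Foxa2, which placed it at percentile 83.2 of genes with a peak.

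Both Foxa2 peaks lay in the 3′-ward part of the gene. RefSeq start sites put Foxa2 on the minus strand, so its low-coordinate end is its 3′ end. The stronger summit lay 599 bp from that end, at 85.4% of the span counted from the 5′ end, and the other 1598 bp from it, at 60.9%. Foxa2 has 3 annotated start sites, at 148046969, 148045948 and 148045464, and no peak overlapped the windows of 250 bp before to 50 bp after them. Of all 32851 such windows in the RefSeq table, 5.38% were overlapped by a peak.

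The background under Foxa2 was low, and the 1 added to both sides of the ratio therefore weighs on it. Backgrounds came in steps of 0.192: of those in the list under 2.5 and above the lowest levels, 61.3% were whole multiples within 0.001. So were 13 of the 17 member backgrounds. The member backgrounds were counted without those limits and reach 5.96, so the shares cover unlike sets. The stronger Foxa2 peak stood on 3 such steps and the weaker on 2. The counting error of so small a background is not in the intervals. With nothing added, the ratio of pileup to background at the stronger peak was 39.9 in place of 15.2.

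Elf3, an ETS factor gene, was the most densely covered member. Its 4899 bp span on chromosome 1, 135253574 to 135258472, held 4 peaks that together covered 37.3% of it. Among 4876 protein-coding genes with a span within a factor of 2 of that of Elf3, 1.83% had 4 or more peaks and 36.2% had any. The peaks, in order of coordinate, had 42, 23, 17 and 13 IP fragments over backgrounds of 1.92, 1.15, 1.92 and 0.577. The first peak, at 135253790 to 135254564, had a fold enrichment of 14.7 (10.7 to 19.8), at percentile 81.6 of the strongest peaks of protein-coding genes.

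The other Elf3 peaks had lower fold enrichments, and the interval of 1 of them did not reach that of the first. The error of the background is not in these intervals, and the difference was not tested. The second peak, at 135254964 to 135255266, had 11.1 (7.23 to 16.5), and the peak at the 5′ end, at 135257652 to 135257961, had 8.88 (5.02 to 14.7). A peak in the middle of the span, at 135256001 to 135256438, had 6.16 (3.73 to 9.66). Its interval does not reach that of the first peak, although both stood over the same background of 1.92. Of 19 pairs of peaks within the same member gene, this was the only 1 whose intervals did not overlap. The share of such pairs over all protein-coding genes was not computed, so whether 1 of 19 is usual is not known.

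Elf3 also lies on the minus strand, and its strongest peak was again the one nearest the 3′ end. Its summit lay 747 bp from that end, at 84.7% of the span from the 5′ end, and the other summits at 68.7%, 49.2% and 13.7%. With no pseudocount the order of the end peaks turned: the ratio of pileup to background was 22.5 at the peak nearest the 5′ end and 21.8 at the one nearest the 3′ end. The summit nearest the 5′ end was 670 bp from it, and its peak did not reach the window around the start site. For reference, over the 18828 peaks in protein-coding genes with a known strand and a peak, 42.8% lay in the last 20% of the span and 17.2% in the first 20%. Spans include introns, and exons were not used here, so neither the stop codon nor any untranslated region was placed.

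Ehf, the other ETS factor gene, had its highest fold enrichment near the low-coordinate end of a longer span. The span on chromosome 2, 103263431 to 103303275, is 39845 bp. The widest of the 17 member peaks lay here, 1110 bp wide at 103266187 to 103267296, with 59 IP fragments over a background of 4.88 and a fold enrichment of 10.2 (7.80 to 13.1). A peak nearer the end, at 103264299 to 103264800, had 30 fragments over a background of 4.61 and a fold enrichment of 5.52 (3.78 to 7.81), the lowest of the 17. The upper bound of the weaker and the lower bound of the stronger of these neighbours meet at 7.81 and 7.80.

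The remaining Ehf peak lay in the middle of the span, at 103283553 to 103283778. It had 17 fragments over 1.15 and a fold enrichment of 8.36 (5.06 to 13.1). With no pseudocount it was the strongest of the gene, at a ratio of 14.7, against 12.1 at the wide peak. Its summit was 19604 bp from the nearer span end, and the data do not say whether it falls in an exon or an intron. The strongest Ehf peak was at percentile 56.6 of the strongest peaks of protein-coding genes, near the middle.

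Klf5 had 3 peaks of like fold enrichment and, by pileup and significance, the largest signal of the members. Its span on chromosome 14, 99298691 to 99313412, is 14722 bp. The middle peak, 1063 bp wide at 99301241 to 99302303, had 71 fragments, the highest pileup of the 17, and a −log10 q of 46.7. Its background of 5.96 was also the highest of the 17, above 94.8% of all peaks in protein-coding spans, and its fold enrichment was 10.3 (8.11 to 13.0).

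The intervals of the Klf5 peaks at the ends of its span overlap that of the middle peak. At the high-coordinate end, the peak at 99313025 to 99313615 had 44 fragments over 2.88 and a fold enrichment of 11.6 (8.49 to 15.5), with its summit 182 bp inside the span. At the low-coordinate end, the peak at 99298659 to 99299137 had 17 fragments over 0.904 and a fold enrichment of 9.46 (5.73 to 14.8), with its summit 293 bp inside. Klf5 was thus the 1 member with a peak across each end of its span, and the 1 member with several peaks in which the strongest by fold enrichment was not the strongest by pileup.

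**Figure D2:**
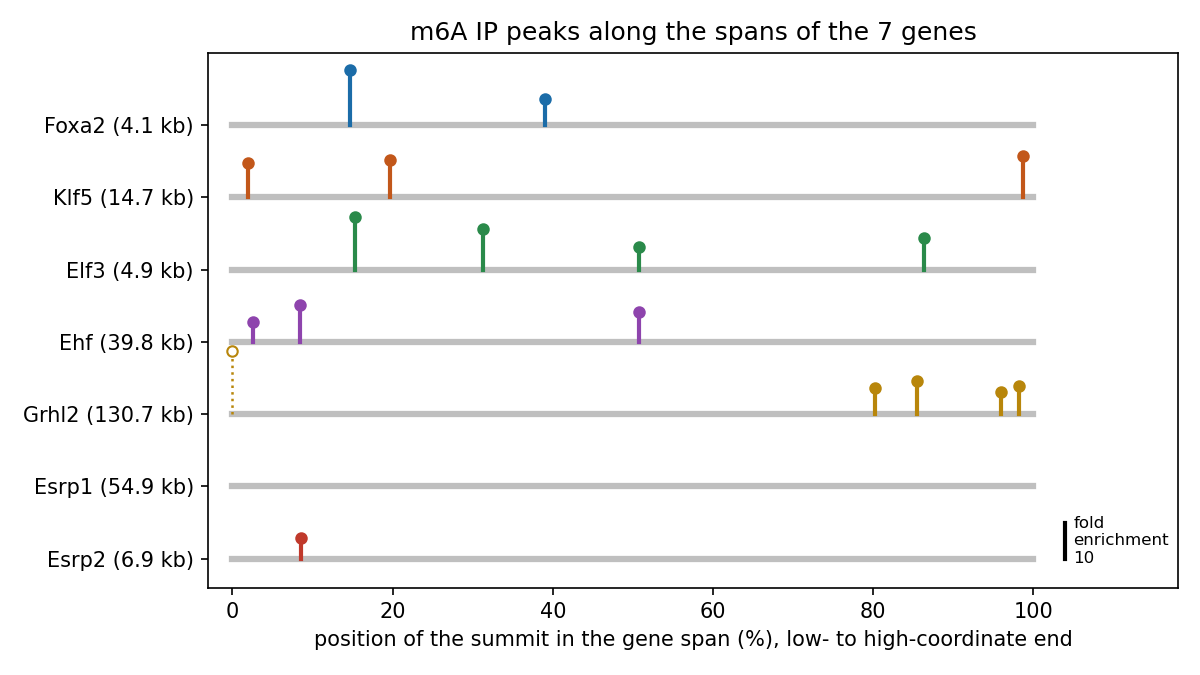
Position of each peak summit along the gene span (horizontal axis, % from the low- to the high-coordinate end) for the 7 genes, with the span length beside each name; stems rise in proportion to the fold enrichment, to the scale bar of 10. The open circle is a peak of 17.5 whose summit lies 12 bp outside the span of Grhl2. Peaks of Grhl2 inside the span lie in its last 20%, those of Klf5 reach both ends, and Foxa2 and Elf3 read in the minus direction, so their 3′ end is on the left.

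Grhl2, the longest member, had peaks of middling enrichment inside its span and a higher one just outside it. The span on chromosome 15, 37232821 to 37363569, is 130749 bp, and its 4 peaks covered 1.08% of it. All 4 summits lay between 80.2% and 98.2% of the span from the low-coordinate end. The strongest, at 37344487 to 37344718, had 19 fragments over 1.15 and a fold enrichment of 9.29 (5.78 to 14.2). This was at percentile 49.4 of the strongest peaks of protein-coding genes. With no pseudocount the strongest Grhl2 peak was another, of 9 fragments over a background of 0.384, and its ratio was 23.4.

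The other 3 Grhl2 peaks had lower fold enrichments and rested on 8 to 16 fragments. The peak nearest the high-coordinate end, at 37360644 to 37361419, had 16 fragments and a fold enrichment of 7.76 (4.63 to 12.3). The peak at 37337584 to 37337784 had 9 fragments and 7.22 (3.69 to 13.1), and that at 37358194 to 37358393 had 8 fragments and 6.19 (3.06 to 11.5). The last was 200 bp wide, the smallest width in the whole list. The intervals of all 6 pairs among the Grhl2 peaks inside the span overlap.

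A peak at 37232106 to 37233000 overlapped the first 180 bp of the Grhl2 span, but its summit lay 12 bp before it. It had 30 fragments over a background of 0.769 and a fold enrichment of 17.5 (12.0 to 24.8), above 95.5% of all peaks in the list and above every peak counted for the 7 genes, though its interval overlaps those of the strongest Foxa2 and Elf3 peaks. Its summit lay in the long non-coding RNA gene Gm16136, whose span runs from 37231921 to 37233159 and overlaps that of Grhl2. The peaks carry no strand, so whether its fragments come from Grhl2 or from Gm16136 cannot be told apart. If any overlap with the span were counted, the strongest peak of Grhl2 would be 17.5 in place of 9.29, and the 7 genes would have 18 peaks.

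Of the splicing regulator genes, Esrp2 had 1 peak and Esrp1 had none. Esrp2, on chromosome 8 at 106130319 to 106137193, carried its peak at 106130400 to 106131076, with 27 fragments over a background of 3.84 and a fold enrichment of 5.78 (3.88 to 8.31). This was at percentile 16.3 of the strongest peaks of protein-coding genes. Its interval lies below those of the strongest peaks of Foxa2, Elf3 and Klf5, which were the 3 of 15 pairs of members whose intervals did not overlap. It overlaps the intervals of Ehf and Grhl2.

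The Esrp2 peak lay close to a neighbour. Its summit was 584 bp inside the low-coordinate end of the span, and the peak overlapped the end of Nfatc3, whose span reaches 106130537. The next peak on that side, with a fold enrichment of 6.05 (4.03 to 8.77), had its summit 2316 bp outside Esrp2, within Nfatc3, and was not counted.

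Esrp1 had no peak in its 54851 bp on chromosome 4, 11331933 to 11386783, and none within 29374 bp of it. Of 5905 protein-coding genes with a span within a factor of 2 of that of Esrp1, 57.3% had a peak. Peak lists hold no depth where nothing was called, so the absence of a call is not a measurement of unmethylated Esrp1 mRNA, and it does not show that Esrp1 and Esrp2 differ.

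**Figure D3:**
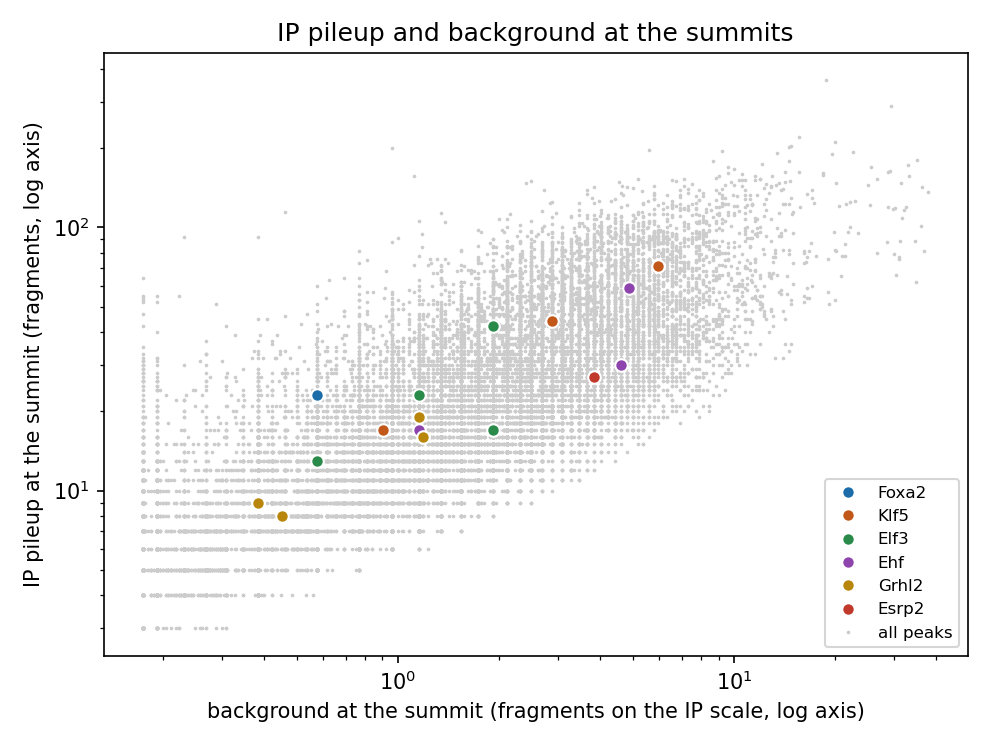
IP pileup (vertical axis, fragments) against background (horizontal axis, fragments scaled to the IP) at each summit, both on log axes, for the 17 member peaks in colour and all 26584 peaks in grey. A Foxa2 and a Grhl2 peak share the point at a pileup of 9 and a background of 0.384. Member peaks lie inside the cloud of all peaks, with Klf5 and Ehf at the highest pileups, 71 and 59, and Grhl2 at the lowest, 8.

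Taken across the 6 members with a peak, the median of the strongest fold enrichment was 10.9, against 9.36 over the 9831 protein-coding genes with a peak, whose quartiles were 6.65 and 13.1. Of the 6, 4 were above that median and 2, Foxa2 and Elf3, above the upper quartile. Foxa2, Elf3, Klf5, Ehf and Grhl2 form a run in which the counting intervals of every pair overlap. Esrp2, the lowest, lay below the lower quartile of protein-coding genes with a peak. It had 1 peak, whereas 58.3% of those genes had more than 1 from which the strongest was taken.

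Width, background and position were compared with those of peaks in protein-coding spans at large. The median width of the member peaks was 438 bp, against 336 bp over all peaks in protein-coding spans, and 10 of 17 were wider than that. The median background was 1.15, against 1.58, and 10 of 17 were below that. Of the 17 summits, 13 (76.5%) lay within 20% of the span of an end, against 59.5% of all peaks in protein-coding spans. Within 10% of an end there were 7 of 17, against 40.4% of all.

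Most of the paralogs listed for the members had no peak, though the list was not complete for Klf5. The further Klf genes Klf3 and Klf6, counted with the regulators below, had 4 and 3 peaks. Their strongest fold enrichments were 8.91 (6.06 to 12.7) and 10.7 (8.27 to 13.5). Of the 7 paralogs listed, 1 had a peak: Klf4, a factor of differentiated epithelia related to Klf5, with 2 peaks and a strongest fold enrichment of 15.0 (11.7 to 19.0). The forkhead genes Foxa1 and Foxa3, the epithelial ETS genes Elf5 and Spdef, and the grainyhead genes Grhl1 and Grhl3 had none. The share of all protein-coding genes with a peak was 44.9%, as above, and whether these paralogs are transcribed in the sample is not in the data used here.

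Of 26 further regulators of epithelial and Müllerian duct cells, 16 had a peak (61.5%, 42.5 to 77.6). The interval includes the 44.9% of all protein-coding genes. The median of their strongest fold enrichments was 10.8, against 9.36 over all protein-coding genes with a peak. Gata6, an endodermal zinc finger factor, had 16.7 (11.9 to 22.9), followed by Klf4. Sox9, an HMG-box factor of gland epithelium, had 12.6 (8.69 to 17.7), and Ovol2, a zinc finger repressor of mesenchymal genes, had 12.6 (7.40 to 20.3). Besides the 6 paralogs above, Lhx1, Trp63, Tfap2a and Cdx2 had no peak.

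Genes listed as splicing targets of the ESRP proteins, known mainly from human and mouse epithelial cells, had peaks in 11 of 12 cases (91.7%, 64.6 to 98.5). Their spans are long, with a median of 91218 bp, and 60.3% of all protein-coding genes of over 50 and up to 100 kb and 70.8% of those over 100 kb had a peak. The median of the strongest fold enrichments was 10.03, near the 9.36 of all genes with a peak. The junction scaffold gene Magi1 had 26.2 (21.7 to 31.4), the exchange factor gene Arhgef11 22.8 (16.5 to 30.7), the kinase gene Slk 15.2 (9.88 to 22.5) and the actin regulator gene Enah 11.9 (9.27 to 15.1). Fgfr2, whose exon choice is a classical readout of ESRP activity, had 10.8 (6.43 to 17.1), and the polarity gene Scrib had no peak.

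The repressors of the epithelial state, which oppose GRHL2 and the ESRP proteins in many cells, had peaks in 6 of 6 cases (100%, 61.0 to 100), against 44.9% of all protein-coding genes. The median of their strongest fold enrichments was 15.5. Their spans ran from 2161 bp (Twist1) to 184142 bp (Zeb1), with a median of 25597 bp. Of all protein-coding genes of over 20 and up to 50 kb, 51.1% had a peak. Zeb2 reached 32.4 (27.0 to 38.6), Twist1 21.4 (15.7 to 28.4), Zeb1 18.9 (14.6 to 24.0) and Twist2 12.2 (8.69 to 16.7). Snai2 had 7.98 (4.52 to 13.2), and Snai1 had 5.71 (2.82 to 10.6) from 8 fragments. The interval of the strongest Zeb2 peak lies above those of the strongest peaks of all 6 members with a peak. Medians over each gene's peaks were lower: 5.77 in Zeb2 (6 peaks), 6.50 in Zeb1 (14 peaks) and 4.90 in Twist2 (3 peaks). These are below the median of all peaks, 7.14. Twist1 had a median of 14.3, Snai2 7.50 and Snai1, with 1 peak, 5.71. These genes are known from stroma as well, and which cells their RNA came from is not in the data.

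**Figure D4:**
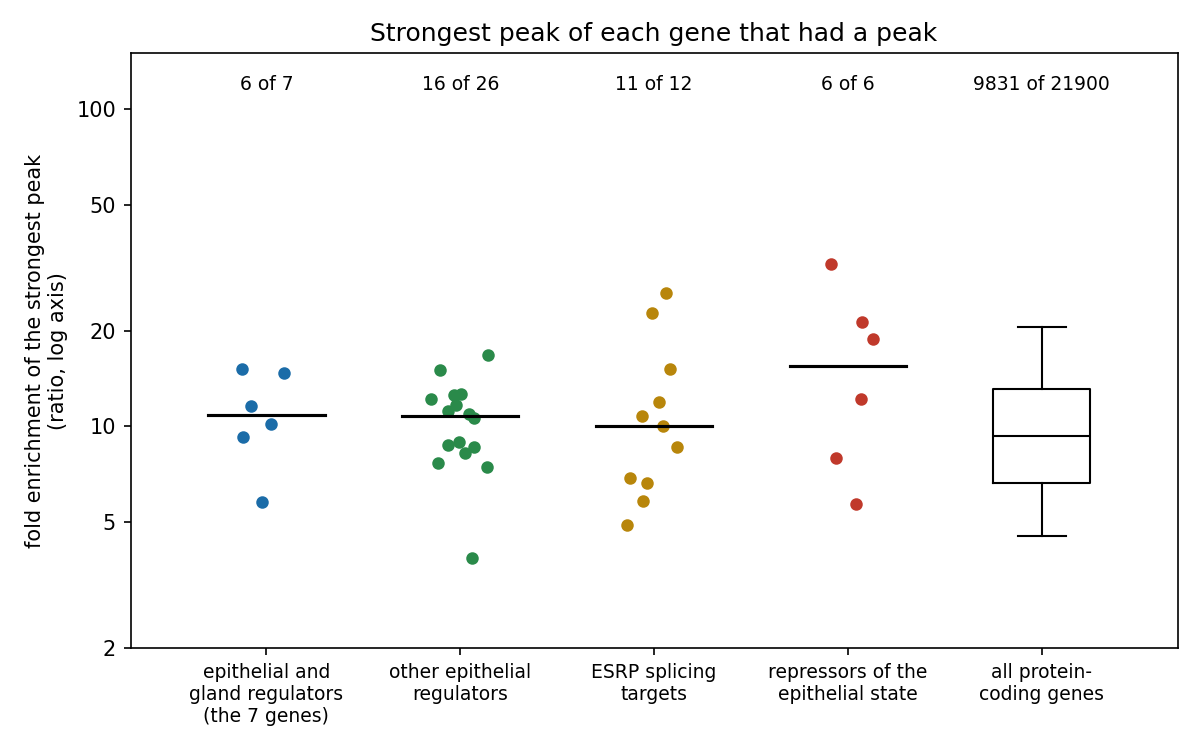
Fold enrichment of the strongest peak (vertical axis, ratio on a log axis) for each gene that had a peak; each point is 1 gene, the line is the median of its list, and the numbers above give genes with a peak out of genes listed. The box holds the quartiles of all protein-coding genes with a peak and the whiskers their percentiles 5 and 95. The 7 genes have a median of 10.9 and the repressors one of 15.5, against 9.36 for all protein-coding genes.

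Markers of the epithelium that these regulators belong to were also among the transcripts with peaks. Of 9 epithelial markers, 7 had a peak (77.8%, 45.3 to 93.7), against 44.9% of all protein-coding genes, among them the claudin genes Cldn4 at 13.7 (8.19 to 21.8) and Cldn3 at 10.3 (7.83 to 13.4) and the keratin genes Krt7 at 12.6 (7.94 to 19.2) and Krt19 at 10.2 (6.64 to 15.1). Krt18 and Muc1 had none. The remaining epithelial markers with a peak lay below the 9.36 of all genes with a peak. Cdh1, the E-cadherin gene, had 5.71 (4.02 to 7.88), Epcam 5.67 (3.68 to 8.40) and Krt8 8.67 (5.52 to 13.0). Of 7 gland genes, with Foxa2 and Sox9 counted here too, 5 had a peak (71.4%, 35.9 to 91.8). Those of the gland proteases Prss28 and Prss29 stood at 4.60 (3.53 to 5.90) and 4.63 (3.69 to 5.74), over backgrounds of 12.3 and 16.7. Spink1 had 3.89 (1.63 to 8.75) from 4 fragments, and Cxcl15 and Ltf had no peak. Among other cell types, set against the same 44.9%, peaks were found in 8 of 8 stromal markers (lower bound 67.6%) and in 4 of 4 smooth muscle and 4 of 4 endothelial markers (lower bound 51.0% each). They were found in 1 of 3 immune markers (33.3%, 6.15 to 79.2), 2 of 4 oviduct and ovary markers (50%, 15.0 to 85.0) and 0 of 3 embryo markers (upper bound 56.1%), and the intervals of these lists include the share of all genes. Longer genes had a peak more often, from 9.28% up to 2 kb to 70.8% over 100 kb. Median spans were 37048 bp in the stromal, 12626 bp in the smooth muscle and 53658 bp in the endothelial list, against 5117 bp in the epithelial list.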

How the data were processed

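Per the labels' protocols, TRIzol was used to extract uterine RNA and a strand-keeping kit to make the libraries. The submitters' processing notes name HISAT2 2.2.1, MACS3 3.0.0a7 and mm10, without options, and the sources used here give neither the use of the input nor any pooling. The deposited peak list of the IP sample gives each peak a fold enrichment (a ratio), −log10 p and −log10 q, a score and a summit offset. The deposited score follows from −log10 q (10 times it, cut to whole numbers, within 1). These are the authors' values and were used only to describe and rank peaks within the list. No file of the input was used here.

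IP pileup and background were solved from the fold enrichment, with its pseudocount of 1, and the Poisson tail above the pileup. The pileup came out whole, within 0.05 of a step, for 100% of peaks, and the solver returned 100% of 2000 simulated peaks. This recovers depth at summits only, not the library totals. Gene spans, names and start sites came from RefSeq on GRCm38.p6 (49997 genes), without exons; strand was taken from the table of start sites, which held Foxa2 and Elf3. Summits in several spans were counted for each gene. Coordinates count from 1.

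The members and gene lists were chosen with earlier results of these data known. Named genes are the members, their paralogs, the 4 highest of each list of regulators, targets, repressors, epithelial and gland markers, and those without a peak. Cdh1, Epcam, Krt8, Fgfr2, Snai1, Snai2 and Spink1 were added after their values were seen. Of the markers, 1 is not reported here. Alternatives kept only peaks with −log10 q from 5 up, with fold enrichment from 4 up or with pileup from 10 up, or used any or 50% overlap with the span, summits in exactly 1 span, each gene's median peak or no pseudocount. The software was scipy 1.17.1, pandas 2.3.3, numpy 2.4.6 and matplotlib 3.10.9 under Python 3.11.15.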

Additional observations from a re-analysis of the deposited data

How the results depend on the processing

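Counts of genes with a peak stayed within 1.5 times of those reported under each alternative they were recomputed with. For the members, the ESRP targets and the repressors a rise of that size was not possible, as nearly all already had a peak. The 6 members with a peak were 6 under all of them, and their peaks numbered between 14, with a pileup of at least 10, and 18, with any overlap. The share of all protein-coding genes with a peak ran between 39.3%, with a pileup of at least 10, and 45.3%, with any overlap. Without a pseudocount the median of the members' highest ratios was 20.7, against 10.9 as reported, and the order changed: Foxa2 39.9, Grhl2 23.4, Elf3 22.5, Klf5 18.8, Ehf 14.7 and Esrp2 7.02. In Grhl2, Elf3, Klf5 and Ehf the highest ratio then lay in another peak than the highest fold enrichment. By construction this alternative raises peaks over a low background most. Under the other alternatives, 2 of 49 fold enrichments left their intervals: Grhl2 at 17.5 with any overlap, and Elf3 at 10.01 with the median over its peaks. The cuts on −log10 q, fold enrichment and pileup and the rule of exactly 1 span removed no member's strongest peak. The members' highest fold enrichments could therefore not move under those settings. Positions and widths were not recomputed under alternatives. No paired analysis was possible because there is 1 IP sample and no replicate. Depth limits the comparison of peaks most in Grhl2 and Foxa2, which hold the lowest pileups of the members, 8 and 9.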
